A study of Caenorhabditis elegans with 2 samples.

Results

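The regions described here are 98 loci of the Caenorhabditis elegans genome at which peaks of MDL-1 ChIP-seq lay in clusters of 3 or more. The members were chosen by the measured peak positions in the list of reproducible ("optimal") peaks that the authors deposited. Summits were sorted along each chromosome, neighbouring summits 20 kb or less apart were chained, and the peaks of each chain of 3 or more were kept. Of 1115 optimal peaks, 375 (33.6%) were members, and the other 740 comprised 262 peaks in pairs and 478 single peaks. The clustered peaks held 36.6% of the summed peak signal of the list. Since the rule used the positions and the optimal list, the numbers, spans, spacings and signals of the clusters below are descriptions, and no test was made on them.

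Chromatin immunoprecipitation followed by sequencing (ChIP-seq) recovers the DNA bound by a protein and maps it to the genome. The series held 1 group of 2 biological replicates and no second condition. Both were whole L4 larvae, male and female pooled, of strain OP355, which carries unc-119(tm4063) III and the transgene wgIs355 for mdl-1, with the chromatin fragmented by sonication. A note in the labels names KLU-1 as the protein with the C-terminal GFP-FLAG tag, whereas the antibody, strain and experiment labels name MDL-1. The labels do not say which promoter drives the transgene or how many copies it has. As whole animals were used, binding in a few cells and weak binding in many cells cannot be told apart. Read depth is unknown, because the deposited lists carry no read totals.

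MDL-1 is the worm relative of the mammalian Mad proteins, transcription factors with a bHLH-Zip domain that repress transcription as dimers with Max. Its Max-like partner is MXL-1, and such dimers are known to bind the palindromic E-box CACGTG. A related network of the worm contains HLH-30, the TFEB-like regulator of autophagy and lysosomal genes, the Max-like protein MXL-3, and the Mondo-like MML-1 with its partner MXL-2.

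Within some loci, peaks with an E-box stood beside peaks without one, as the summit sequences printed here show. Of the 98 clusters, 40 had no CACGTG within 50 bp of any summit. The windows of 101 bases shown here, centred on the summit, are from the forward strand of build ce11 and are printed in lower case. Capitals mark CACGTG, the variant CACGCG (or its reverse complement CGCGTG) and GAGAGA (or its reverse complement TCTCTC). The first 8 come from 8 of the named clusters, each being the strongest window of its cluster that holds a CACGTG and overlaps no exon. They are called by the gene with the nearest 5' end, except those upstream of mdl-1 and mxl-3. For these the gene with the nearest 5' end is another and is given beside.
W06H8.6 intron, V:6224543-6224643, signal 174: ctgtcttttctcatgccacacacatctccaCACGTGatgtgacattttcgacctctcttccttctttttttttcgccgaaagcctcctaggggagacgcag
Upstream of mdl-1, nearest 5' end R03E9.2, X:6737730-6737830, signal 701: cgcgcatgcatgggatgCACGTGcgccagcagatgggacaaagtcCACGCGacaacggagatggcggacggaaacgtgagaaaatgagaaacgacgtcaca
tbc-6 intron, II:6849433-6849533, signal 97.0: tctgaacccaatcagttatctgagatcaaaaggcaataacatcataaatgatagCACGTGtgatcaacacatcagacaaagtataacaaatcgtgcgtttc
dmd-6 intergenic, IV:14612806-14612906, signal 65.7: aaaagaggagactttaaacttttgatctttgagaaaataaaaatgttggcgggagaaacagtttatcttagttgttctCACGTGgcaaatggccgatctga
T28B11.1 intron, V:10715902-10716002, signal 247: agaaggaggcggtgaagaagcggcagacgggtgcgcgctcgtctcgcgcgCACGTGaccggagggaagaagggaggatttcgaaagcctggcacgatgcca
T04C10.3 intron, X:14813509-14813609, signal 126: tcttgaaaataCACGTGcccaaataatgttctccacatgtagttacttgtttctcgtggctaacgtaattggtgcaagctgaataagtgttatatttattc
hlh-30 intron, IV:4026030-4026130, signal 195: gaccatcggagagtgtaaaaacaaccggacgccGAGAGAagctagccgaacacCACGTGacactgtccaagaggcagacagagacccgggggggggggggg
mxl-3 upstream, nearest 5' end C49F8.15, X:13358701-13358801, signal 109: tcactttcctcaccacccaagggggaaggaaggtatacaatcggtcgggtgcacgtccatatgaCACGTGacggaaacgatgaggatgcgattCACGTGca

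The 4 windows that follow have no CACGTG and come from the same clusters as some of those above. They are the next peak upstream of mdl-1, the peak at the 5' end of W06H8.6, the peak at epn-1, which holds 2 CACGCG variants, and the peak in an intron of egl-27.
Upstream of mdl-1, X:6736522-6736622, signal 238: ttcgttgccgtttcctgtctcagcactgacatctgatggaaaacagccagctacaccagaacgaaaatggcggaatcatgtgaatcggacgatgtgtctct
W06H8.6 upstream, V:6227557-6227657, signal 160.4: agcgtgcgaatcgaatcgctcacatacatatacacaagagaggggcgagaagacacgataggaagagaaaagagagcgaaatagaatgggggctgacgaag
epn-1 upstream, X:14818902-14819002, signal 523: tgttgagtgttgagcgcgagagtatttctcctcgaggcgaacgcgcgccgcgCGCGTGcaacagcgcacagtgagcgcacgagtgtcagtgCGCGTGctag
egl-27 intron, II:6842752-6842852, signal 191: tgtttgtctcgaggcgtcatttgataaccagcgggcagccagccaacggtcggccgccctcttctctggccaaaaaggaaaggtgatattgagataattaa

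Most clusters were small. Of the 98, 56 (57.1%) had 3 peaks, 23 had 4, 10 had 5, 3 had 6, 5 had 7 and 1 had 12. The 19 clusters of 5 or more peaks held 115 peaks. A cluster spanned from 2151 to 37672 bp between its first and last summit, with a median of 13666.5 bp, and all spans together covered 1422.6 kb, which is 1.42% of the nuclear genome. In the same spans lay 763 (2.64%) of the 28885 weaker candidate regions of the pooled list, from 0 to 27 in a cluster. The summed signal of a cluster, in the units of the authors' peak caller, ran from 166 to 1427 with a median of 329. These sums rise with the number of peaks, but clusters of 3 peaks also reached 642 at bcat-1, which encodes a branched-chain amino acid aminotransferase and was chosen after its values were seen.

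**Figure D1:**
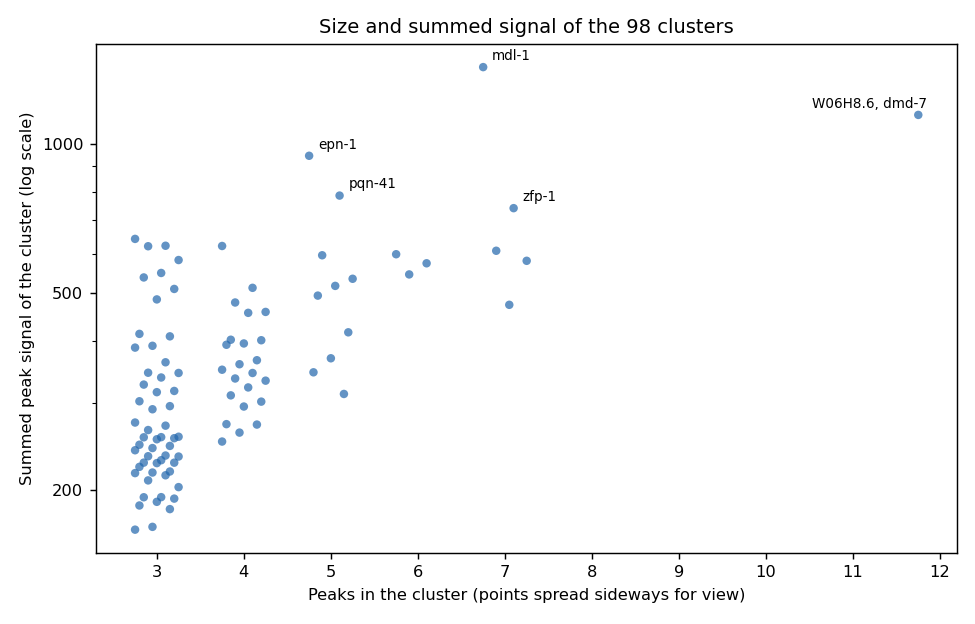
Number of peaks in a cluster (horizontal axis) against the summed signal of its peaks in the pooled list (vertical axis, log scale), with 1 point for each of the 98 clusters. The 12-peak cluster stands alone on the right with 1143, and the 7-peak cluster upstream of mdl-1 has the top sum of 1427.

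In most clusters the signal was spread over several peaks. The strongest peak held from 15.2% to 80.9% of the signal of its cluster, with a median of 42.7%, and more than 50% in 23 clusters. Single member peaks had signals from 48.4 to 701 with a median of 74.2, and the other optimal peaks had 48.2 to 508 with a median of 70.8. Members made up 8 of the strongest 10 optimal peaks, 14 of the strongest 25 and 45 of the strongest 100. Clusters were found on all 6 nuclear chromosomes. Members were 39.9% of the optimal peaks on chromosome I (55 of 138), 32.7% on II (55 of 168), 37.6% on III (73 of 194), 28.8% on IV (44 of 153), 31.8% on V (55 of 173) and 32.2% on X (93 of 289). The exact (Clopper-Pearson) 95% intervals of these shares, which cover the counting of peaks only, ran from 21.7% to 36.6% on IV and from 31.6% to 48.5% on I, so they overlapped.

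Neighbouring summits of a cluster were mostly much closer than the rule required. Of 277 neighbouring pairs, 106 (38.3%) were 2000 bp or less apart, 182 (65.7%) were 5000 bp or less and 226 (81.6%) were 10000 bp or less. The median distance was 2922 bp and the range 199 to 19897 bp. The widest gaps inside the rule were 19897 bp on V, 19134 and 18735 bp on III and 18974 bp on X. The narrowest gaps outside it whose joining would have made a cluster of 3 or more were 20027 and 20456 bp on V and 20247 and 20469 bp on X. At the short end, 20 pairs were 500 bp or less apart, and 17 of these were 199 to 220 bp apart. For each of these 20 pairs, the strongest candidate region that overlapped the peaks was the same for both summits in replicate 1, and likewise in replicate 2. The intervals of such close peaks can overlap 1 region together. Whether the replicate lists hold a second, weaker region there was not examined. With summits within 500 bp merged, 341 of 1086 peaks remained in 91 clusters.

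**Figure D2:**
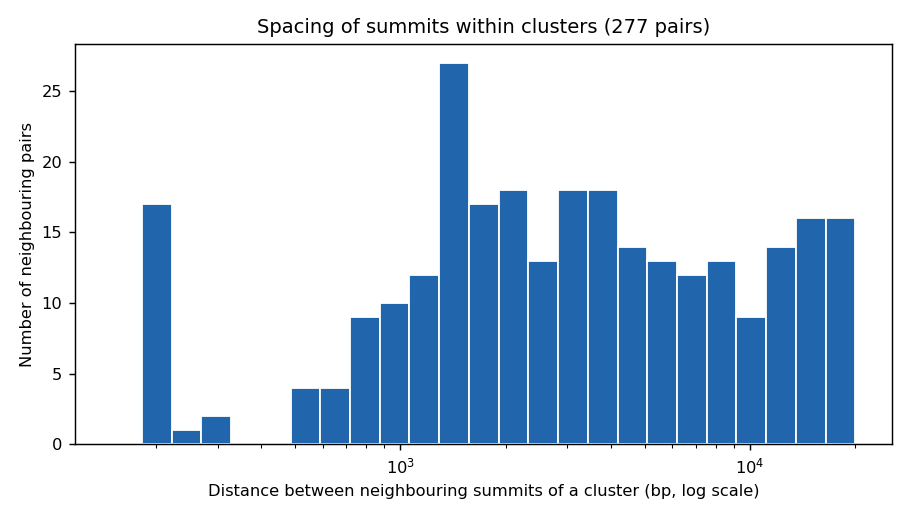
Distance between neighbouring summits within a cluster (horizontal axis, bp, log scale) against the number of neighbouring pairs (vertical axis), for 277 pairs. A narrow group of 17 pairs stands near 200 bp, 3 more follow at 228 to 317 bp, and the rest spread from about 500 bp up to the limit of the rule.

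The cluster with the highest summed signal lay upstream of mdl-1 itself (X: 6742351-6743899, forward strand). Its 7 summits ran from X: 6728429 to X: 6739524. The 4 nearest to mdl-1, all intergenic, had signals of 73.3, 238, 701 and 216 in order towards the gene, the last at position -2827 relative to the 5' end of mdl-1. The peak of 701, whose window with an E-box and a CACGCG is printed above, had rank 1 in each replicate as well as after pooling, and held 49.1% of the cluster's signal. The peaks of 238 and 216 on either side of it ranked 33 and 29 in replicate 1 and 24 and 131 in replicate 2, and neither window held a CACGTG. The other 3 peaks lay at K11G12.6 with signals of 59.0, 73.6 and 66.9. These 3 ranked unevenly, at 1344, 360 and 3933 in replicate 1 and 598, 5091 and 163 in replicate 2. The strain carries a transgene for mdl-1, and signal from the transgene and from the native locus cannot be told apart in peak lists. Without this cluster the members held 33.2% of the peaks and 35.7% of the signal.

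Of the 6 genes of the Myc-Mondo-Mad network that were looked up, hlh-30 was the one that a cluster overlapped, and mxl-3 and mdl-1 had one within 5 kb. Of all 19973 protein-coding genes, 279 (1.4%) were overlapped by the span of a cluster and 483 (2.42%) were overlapped or lay within 5 kb of one. At hlh-30 (IV: 4014793-4034951, reverse strand) all 5 summits lay inside the gene, 4 in introns and 1 in a 3' UTR. Signals along the chromosome were 56.2, 70.4, 48.6, 195 and 123. The peak of 195, which ranked 83 in replicate 1 and 39 in replicate 2, holds the E-box shown above, and the peak of 123 lies in the promoter window of an alternative 5' end and holds a CACGCG. The promoter window, here and below, covers 1000 bp before and 200 bp after any 5' end annotated for a protein-coding transcript. At mxl-3 (X: 13349639-13350804, reverse strand) 3 intergenic summits had signals of 65.3, 152 and 109, the first at position -3001 and the second at -5857 relative to the mxl-3 5' end. The third, with 2 CACGTG sequences in its window, lay nearest to the 5' end of C49F8.15. None of the 3 was in a promoter window, and their ranks were 758, 172 and 278 in replicate 1 and 606, 87 and 214 in replicate 2.

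The cluster with the most peaks spanned 33403 bp (V: 6214080-6247483) with 12 summits and a summed signal of 1143. It overlapped rme-1, which encodes an EHD-family ATPase of endocytic recycling, the chemoreceptor gene str-206, W06H8.6, K08B12.3 and dmd-7, a gene of the DM-domain transcription factor family. The strongest peak (174, rank 156 in replicate 1 and 27 in replicate 2) was in an intron of W06H8.6. A peak of 160.4 lay in the promoter window of W06H8.6, 1 of 120.3 in that of dmd-7 and 1 of 114 in that of rme-1. No peak dominated, as the strongest held 15.2% of the signal, the lowest such share of the 98 clusters. Of the 12 windows 2 held a CACGTG and 3 a GAGAGA. The 12 summits include 2 pairs that were 202 and 201 bp apart.

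The cluster around epn-1 (X: 14810980-14841243) had 5 peaks and a summed signal of 945. The epn-1 gene encodes an epsin, an adaptor of clathrin-dependent endocytosis. The peak of 523 in its promoter window had pooled rank 2 and ranked 3 in replicate 1 and 2 in replicate 2. Other peaks of the cluster lay in the promoter windows of atf-4 (120.3), the bZIP factor of the integrated stress response, and of mbk-1 (72.2), a DYRK-family kinase. A peak of 126 lay in an intron of T04C10.3, and 1 of 103 had its nearest 5' end at egrh-1, a gene of the EGR zinc finger family. All 5 peaks were among the 1115 strongest regions of both replicates.

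At zfp-1 (III: 8791535-8806305), which encodes a PHD finger protein related to mammalian AF10, 5 of the 7 summits of the cluster were in introns, with signals of 64.9, 155, 108, 93.1 and 199.6. The last of these lay in the promoter window of an internal 5' end and ranked 57 in replicate 1 and 59 in replicate 2. None of the 7 windows held a CACGTG or a CACGCG, and 3 held a GAGAGA. The 2 other summits were in the promoter windows of K02D10.4 (71.8) and K02D10.8 (48.9). At egl-27 (II: 6835008-6847908), which encodes a protein related to the MTA subunits of the NuRD complex, 2 of 7 summits were in its introns, with signals of 56.1 and 191. The neighbour tbc-6, of the TBC domain family of Rab regulators, held 2 more, with a signal of 86.9 in the 5' UTR and 97.0 in an intron.

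A cluster of 7 on chromosome II (II: 10527825-10563595, summed signal 580) reached the promoter windows of 4 genes. They were mnk-1, which encodes a kinase related to the mammalian eIF4E kinases (157 and 68.1), cdc-48.1, which encodes a p97-type ATPase (97.1), mab-10, which encodes a NAB-type cofactor of the larval-to-adult switch (52.9), and pro-1, which encodes a WD-repeat protein of ribosome biogenesis (49.95). The replicates differed most at pro-1, with rank 521 in replicate 1 and 13046 in replicate 2. The cluster of 7 at dmd-6 on IV had no summit in a promoter window and signals from 52.2 to 124, the strongest with its nearest 5' end at irld-18, and 5 of its peaks were intergenic. On chromosome I, a cluster of 6 had summits in the promoter windows of pbrm-1, the polybromo subunit of SWI/SNF remodellers (124), and T28F4.4 (95.2), with its strongest peak of 148 in an intron.

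**Figure D3:**
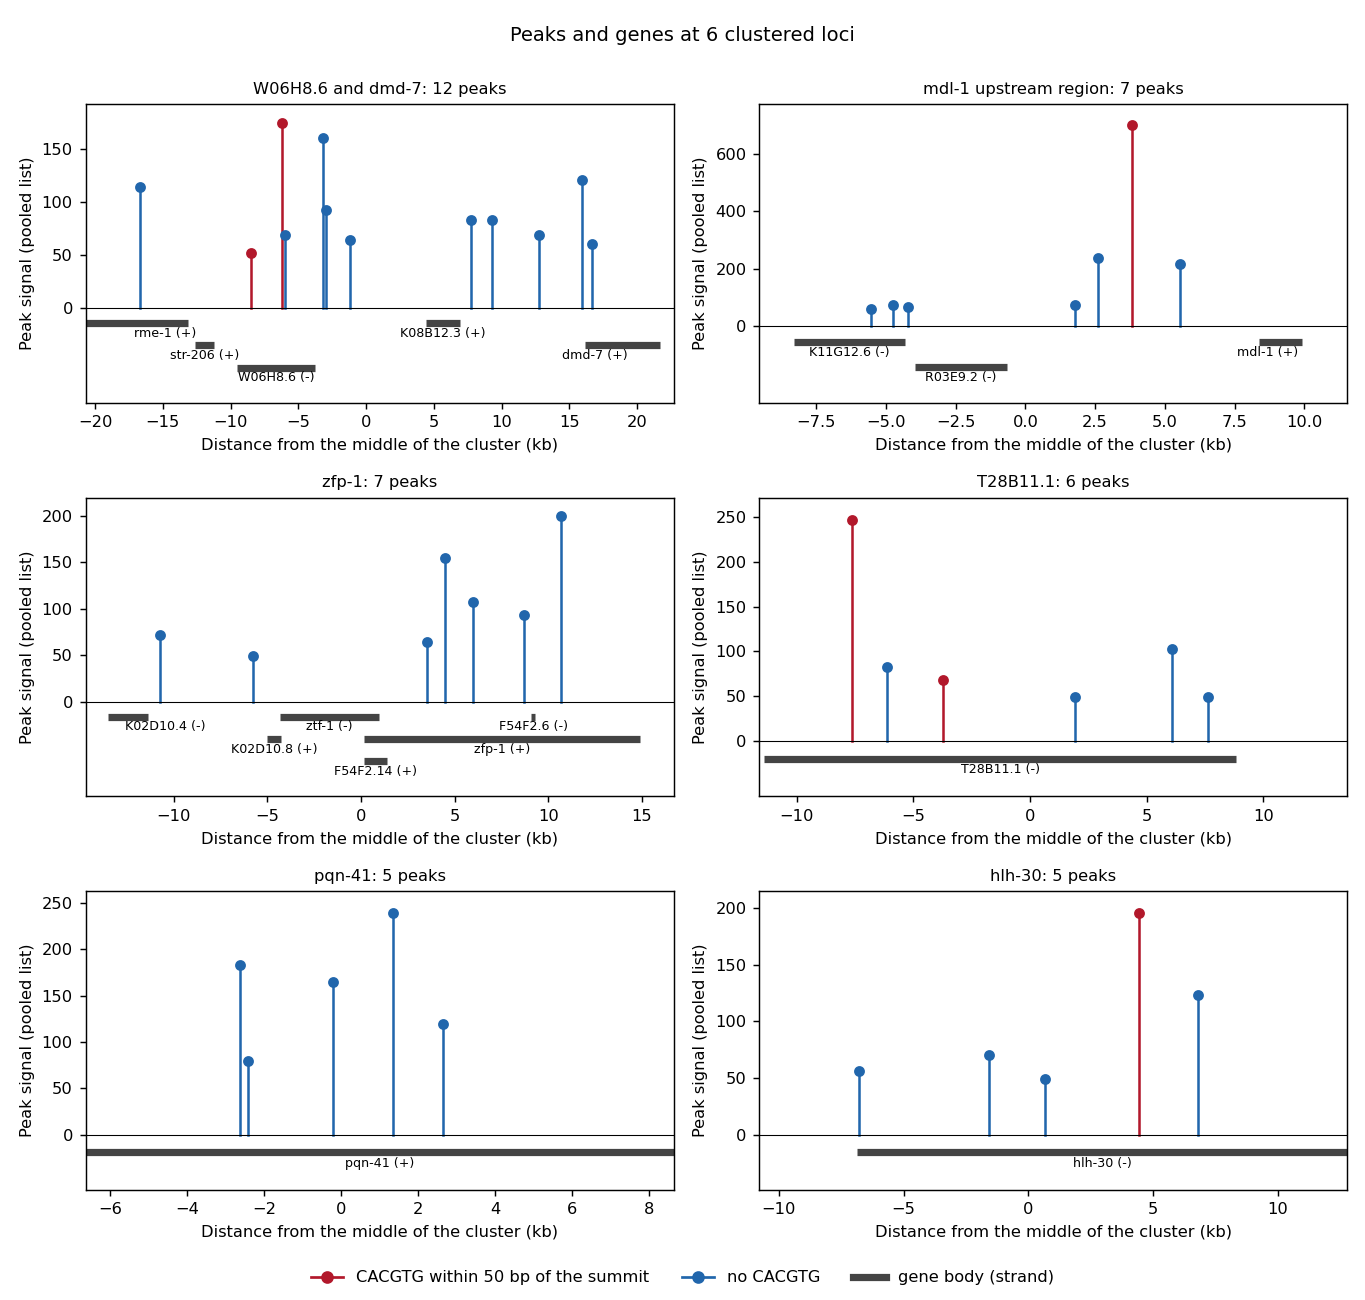
Peaks and genes at 6 named clusters: distance from the middle of the cluster in kb (horizontal axis) against peak signal in the pooled list (vertical axis, scaled per panel), with genes drawn as bars below. Red stems have a CACGTG within 50 bp of the summit, and blue stems do not. The 7 peaks upstream of mdl-1 reach 701, whereas the peaks inside zfp-1, T28B11.1, pqn-41 and hlh-30 lie between 48.6 and 247.

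Clustered summits were more often inside introns and less often intergenic than the other optimal summits. They were intronic in 146 of 375 clustered peaks (38.9%, exact 95% interval 34.0% to 44.1%) and in 164 of 740 others (22.2%, 19.2% to 25.3%). The difference of 16.8 percentage points passed Fisher's exact test, two-sided (p = 2.4e-08, Benjamini-Hochberg adjusted over the 6 measures tested). They were intergenic in 199 clustered peaks (53.1%, 47.9% to 58.2%) and in 526 others (71.1%, 67.7% to 74.3%), a difference of -18.0 points (Fisher's exact test, adjusted p = 2.4e-08). Both calls held with only the first peak of each cluster along the chromosome counted, where 34.7% of clustered summits and 22.2% of others were intronic and 57.1% of clustered summits and 71.1% of others were intergenic (Fisher's exact test, adjusted p = 0.023 for both). These tests count peaks, not samples, and neighbouring peaks share a gene and a locus, so p-values over all peaks are too small. Of the remaining clustered summits, 15 were in 5' UTRs, 10 in 3' UTRs, 4 in coding exons and 1 in another exon.

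Promoter windows held 157 of 375 clustered summits (41.9%, interval 36.8% to 47.0%) and 396 of 740 others (53.5%, 49.8% to 57.2%). The difference of -11.6 points passed Fisher's exact test (adjusted p = 0.00059) but not with that 1 peak a cluster, where it was -4.53 points (adjusted p = 0.541). Clustered summits lay a median of 1103 bp from the nearest 5' end, and the others 740 bp. Among intronic summits, 26.0% of the clustered and 42.7% of the other peaks were in a promoter window of their gene or a neighbour, and among intergenic summits 50.8% of the clustered and 55.3% of the other peaks were. No test was made on these last shares.

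**Figure D4:**
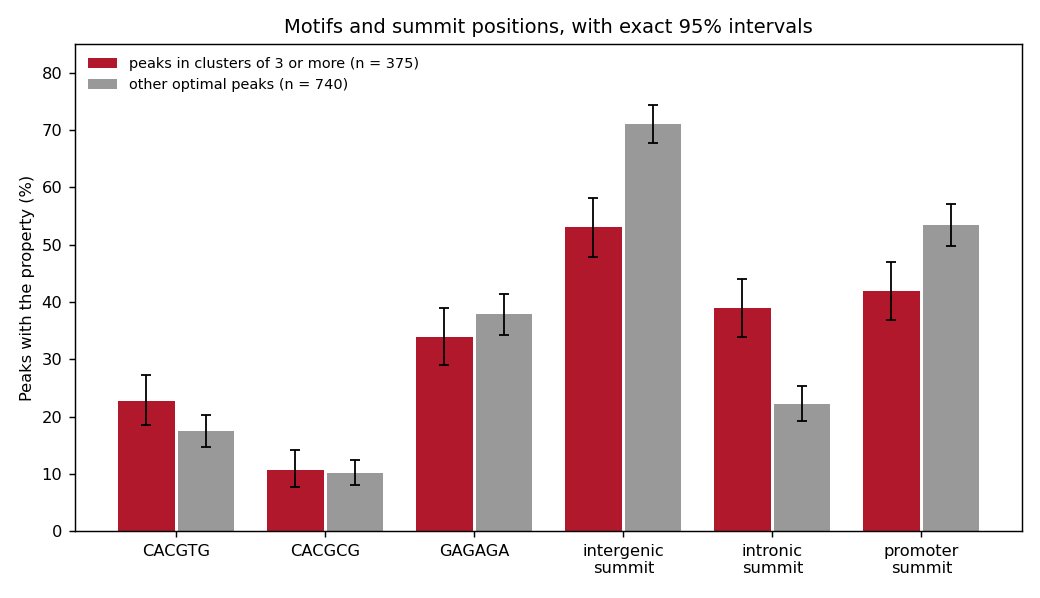
Share of clustered peaks and of other optimal peaks (percent) with each of 3 motifs within 50 bp of the summit and in each of 3 annotation classes, with exact 95% intervals as error bars, for 375 clustered and 740 other peaks. Intronic summits make up 38.9% of the clustered and 22.2% of the other peaks, and the intervals of the 2 bars do not overlap.

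A small number of long genes carried many of the intronic peaks. The 146 intronic summits lay in 76 genes. In 24 protein-coding genes the body held 3 or more clustered summits, 90 in all, and these genes had a median length of 16917.5 bp. The median was 6592 bp for all 101 genes with a clustered summit in the body, 6684.5 bp for the 196 genes with only other optimal summits, and 2027 bp for all 19973 protein-coding genes. A longer gene has more room for 3 summits, and the count for a gene was not adjusted for its length. Of the 98 clusters, 16 lay within 1 gene, 15 had all of their summits in introns, 24 had all of them intergenic and 7 overlapped no protein-coding gene.

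The 24 genes were singled out after their values were seen, and 10 of them had 4 or more summits. The genes ppfr-1, which encodes a regulatory subunit of protein phosphatase 4, and T28B11.1 had 6 each. The genes pqn-41, hlh-30, zfp-1 and Y43F8B.2 had 5 each, and daf-5, pkg-2, let-526 and F09A5.3 had 4 each. Of these, daf-5 encodes a SKI/SNO-type factor of the TGF-beta-like dauer pathway, pkg-2 a cGMP-dependent protein kinase and let-526 an ARID-domain subunit of SWI/SNF. Among genes with 3 summits were daf-16 (FOXO), aakg-1 (a gamma subunit of AMP-activated kinase), lag-1 (the CSL factor of Notch signalling), kin-20 (a casein kinase 1 of the heterochronic pathway), vhp-1 (a MAP kinase phosphatase), fkh-7 (a forkhead factor) and nhr-19 (a nuclear hormone receptor).

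At T28B11.1 (V: 10712160-10732422, reverse strand) the 6 intronic peaks had signals of 247, 82.3, 68.5, 49.3, 103 and 48.7 along the chromosome. The strongest, with the E-box shown above, ranked 47 in replicate 1 and 13 in replicate 2. At pqn-41 (III: 1905958-1939570), which encodes a glutamine-rich protein that acts in the death of the linker cell, the 5 intronic peaks had signals of 184, 79.7, 164, 239 and 119 and lay within 5278 bp, the first 2 of them 208 bp apart. None of them held a CACGTG or a CACGCG, and all 5 were among the 1115 strongest regions of both replicates. At ppfr-1 (I: 9364099-9389982) the 6 intronic peaks ranged from 51.8 to 189, but 2 pairs were 201 and 200 bp apart. The peaks of each pair shared their strongest overlapping region in both replicates.

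The 3 peaks of daf-16 inside the gene (I: 10750498-10776703) were in introns, with signals of 62.8, 68.1 and 83.6, and 1 more, of 71.9, lay in the promoter window. They ranked 2117, 642, 405 and 786 in replicate 1 and 448, 730, 763 and 408 in replicate 2. At aakg-1 the intronic peaks had signals of 75.1, 52.4 and 105, and a peak of 389 lay upstream at position -8291 relative to its 5' end, with rank 9 in replicate 1 and 6 in replicate 2. Another peak of the daf-16 cluster, of 59.1, lay at position -1916 relative to the daf-16 5' end. The intronic peaks reached 83.6 at daf-16 and 105 at aakg-1. The peak upstream of aakg-1, which ranked 8 in the pooled list, was intergenic.

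A clustered summit lay in the promoter window of 158 protein-coding genes (0.791%), beside the 1.4% overlapped by a span. Against that background the listed genes were counted, as descriptions without a test. Of 23 longevity and stress factors found in the annotation, 5 were overlapped by a cluster and 7 had a clustered promoter summit. The 4 of highest signal were hlh-30 (123), atf-4 (120.3), nhr-49 (95.2), the receptor that controls fatty acid metabolism, and daf-16 (71.9). The other 3 were lin-14 (70.5), hif-1 (55.4) and atf-7 (49.1). The clusters at nhr-49 and hif-1 fall below 3 peaks when summits within 500 bp are merged. Long genes with several 5' ends have more windows, and the counts were not adjusted for this.

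Of the 8 protein-coding heterochronic genes, which time larval development, the clusters overlapped lin-14 and lin-41, and lin-14 had the clustered promoter summit. The 3 peaks at lin-14, with signals of 70.5, 71.4 and 50.2, ranked 1119, 1203 and 1312 in replicate 1 and 238, 254 and 727 in replicate 2. It was the one cluster of the 98 with no peak among the 1115 strongest regions of both replicates. The hypoxia list had hif-1 as 1 of 6 members overlapped. Its stronger summits, of 154 and 64.6, lay 215 bp apart upstream of the gene, the stronger with a CACGTG. Merged as 1 summit, they leave fewer than 3 peaks at this locus.

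Of the 2 enzymes of O-GlcNAc cycling, ogt-1 (III: 7145842-7153797, reverse strand) had a cluster of 3. A peak of 147 lay in its promoter window, and the strongest, of 326 with a CACGCG, lay farther upstream at position -2043 and ranked 14 in replicate 1 and 11 in replicate 2. The clusters overlapped 2 of 78 cytosolic ribosomal protein genes (2.56%), and both had a clustered promoter summit: rps-1 (185, shared with ifet-1) and rpl-3 (121). Nuclear hormone receptors were overlapped in 7 of 269 cases (2.60%), and 3 had a clustered promoter summit: nhr-32 (134), nhr-49 (95.2) and nhr-48 (89.2). None of 171 collagens was overlapped or had such a summit. Of non-coding genes, the spans overlapped 17 of 261 miRNA genes (6.51%), 18 of 346 snoRNA genes (5.20%), 5 of 129 snRNA genes (3.88%), 203 of 7764 genes annotated as ncRNA (2.61%), 12 of 612 tRNA genes (1.96%), 177 of 15363 piRNA genes (1.15%) and 1 of 194 lincRNA genes (0.515%). Over these classes together it was 433 of 24669 (1.76%). Many of these RNA genes lie inside or beside protein-coding genes, and the count was not adjusted for this.

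The E-box was found at a minority of clustered summits. CACGTG lay within 50 bp of 85 of 375 clustered summits (22.7%, interval 18.5% to 27.2%) and of 129 of 740 others (17.4%, 14.8% to 20.4%). The difference of 5.23 points missed the threshold of 0.05 after adjustment (Fisher's exact test, p = 0.044, adjusted p = 0.066). It was 5.02 points with the first peak of each cluster alone (adjusted p = 0.393), 2.01 with chaining at 30 kb (0.490) and 1.42 with only the peaks above the median signal (0.962, all by Fisher's exact test). Among the 28885 weaker candidates, 2.96% of windows of the same length held it. All 3 motifs were searched on both strands, and CACGTG is its own reverse complement. On chromosome X alone CACGTG was in 30.1% of clustered and 13.3% of other peaks (Fisher's exact test, adjusted p = 0.0034), and on the autosomes in 20.2% of clustered and 18.9% of other peaks (adjusted p = 0.853). Peaks of 1 locus were counted separately here, so these p-values are too small, and 1 peak a cluster was not run on X alone. The difference between X and the autosomes was not tested. With clusters rebuilt from the strongest regions of replicate 2 alone the difference turned to -2.98 points (14.9% of clustered and 17.9% of other regions, adjusted p = 0.253, Fisher's exact test).

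The variant CACGCG was in 40 clustered summit windows (10.7%, interval 7.73% to 14.2%) and in 75 others (10.1%, 8.06% to 12.5%), with an adjusted p of 0.835 by Fisher's exact test. The repeat GAGAGA was in 127 clustered windows (33.9%, 29.1% to 38.9%) and in 280 others (37.8%, 34.3% to 41.4%), with an adjusted p of 0.253 by Fisher's exact test. That difference of -3.97 points passed with clusters rebuilt from replicate 2 alone, where it was -8.66 points (27.6% of clustered and 36.2% of other regions, adjusted p = 0.0052 by Fisher's exact test). Weaker candidates held CACGCG in 1.59% and GAGAGA in 7.64% of windows. The median share of G and C in the window was 48.5% for clustered and for other peaks. None of the 3 motifs was in 166 clustered windows (44.3%), and 22 held both CACGTG and GAGAGA.

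Counted by locus, 58 clusters had at least 1 peak with CACGTG and 40 had none, while 20 had 2 or more such peaks. GAGAGA occurred in 71 clusters, with 2 or more peaks in 40 of them, and CACGCG in 36. Only 9 clusters had neither CACGTG nor GAGAGA in any window. The strongest peak of a cluster held CACGTG in 26 of 98 cases (26.5%, interval 18.1% to 36.4%) and the other member peaks in 59 of 277 (21.3%, 16.6% to 26.6%). For CACGCG the shares were 19 of 98 for the strongest peaks (19.4%, 12.1% to 28.6%) and 21 of 277 for the other members (7.58%, 4.75% to 11.4%), and these intervals did not overlap. For GAGAGA they were 34.7% for the strongest and 33.6% for the other members. The rank of a peak within its cluster is part of the clustered signal, so these shares are a description. Peaks of like signal outside the clusters were not compared.

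In 6 clusters, singled out after their values were seen, 3 or more peaks held a CACGTG. At Y43F8B.2 (V: 19519938-19533110) 4 of 5 intronic peaks did, with the strongest (243) ranked 20 in replicate 1 and 46 in replicate 2. At bcat-1 all 3 did, with signals of 413, 148 and 81.0, and the strongest lay at position -4991 relative to the 5' end and ranked 7 in replicate 1 and 5 in replicate 2. At aakg-1 3 of 4 peaks did, at H18N23.2 3 of 4, and at ZK470.2 and at the argn-1 and srv-7 locus all 3. These loci run from 183 to 642 in summed signal, so repeated E-boxes were found in weak and in strong clusters.

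All 375 clustered peaks had a region in both replicate lists. The optimal list was drawn from these replicates, so their ranks are a description and no independent check. Each peak took the rank of the strongest region that overlapped it. Both peaks of each of the 20 close pairs therefore carry the rank of 1 region, the weaker peak with the stronger. The medians and shares below were not adjusted for this. The median rank of the clustered peaks was 476 in replicate 1 and 478 in replicate 2, and that of the other optimal peaks was 572.5 in replicate 1 and 616.5 in replicate 2. Among the 1115 strongest regions of both replicates were 257 clustered peaks (68.5%, interval 63.6% to 73.2%) and 460 others (62.2%, 58.6% to 65.7%). A further 73 clustered peaks were there in replicate 1 only, 35 in replicate 2 only and 10 in neither. The lowest-placed clustered peaks had rank 6533 in replicate 1 and 19424 in replicate 2. In 26 clusters every peak was among the strongest regions of both replicates.

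The same chaining was applied to the 1115 strongest regions of each replicate. It gave 97 clusters in replicate 1 and 99 in replicate 2. Of the 98 clusters, 80 (81.6%) overlapped one of replicate 1, 65 (66.3%) one of replicate 2, 56 one in both and 9 one in neither. Such an overlap meant at least 1 bp between spans and required no shared peak. The lin-14 cluster overlapped one of replicate 1, although none of its 3 peaks was among the 1115 strongest regions there. Wider spans overlap more easily, and the counts were not adjusted for this. Seen from the replicates, 80 clusters of replicate 1 (82.5%) and 64 of replicate 2 (64.6%) overlapped one of the 98. The 19 clusters of 5 or more peaks all overlapped a cluster in both replicates. The 9 without a counterpart had 3 or 4 peaks, and among them were those at rps-1 and atf-7, at nhr-49 and at ivns-1.

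**Figure D5:**
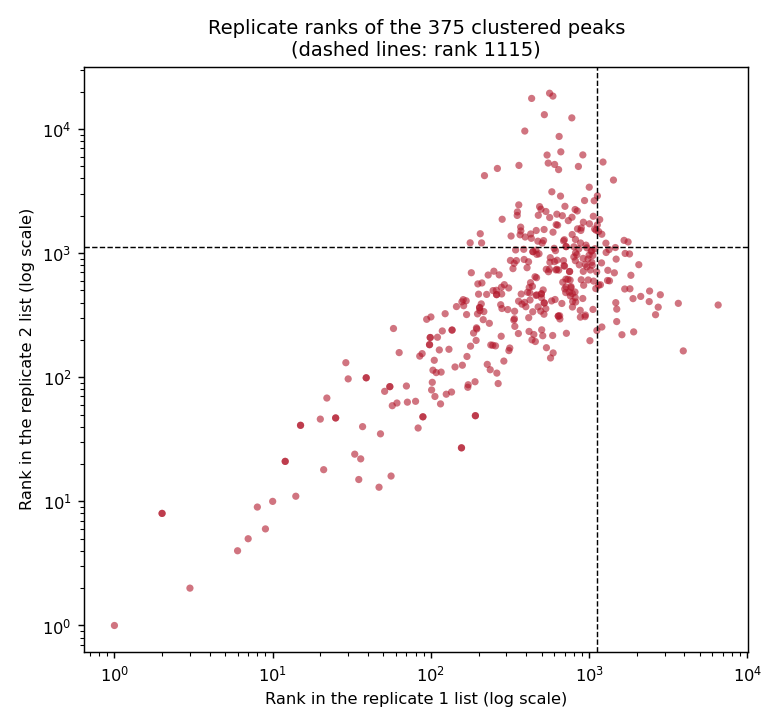
Rank of each of the 375 clustered peaks in the candidate list of replicate 1 (horizontal axis, log scale) against its rank in that of replicate 2 (vertical axis, log scale), with dashed lines at rank 1115. The peak upstream of mdl-1 is at rank 1 in both, 257 points lie within both lines, and the points that rank low in replicate 2 reach 19424.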

How the data were processed

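ChIP-seq peak lists of 2 biological replicates (1 group) were analysed on build ce11. The signal of each region is the deposited value of the authors' peak caller, used only within a list. Per the labels and the text files deposited with the libraries, these are candidate lists of 30000 regions (1 for each replicate, 1 pooled) and an optimal list kept by irreproducible discovery rate. Aligner, peak caller and IDR threshold: not given in the sources used here. Controls were not analysed. Summits are the start plus the deposited offset, which in 1 member peak passed its interval.

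Genes came from Ensembl release 115 and sequence from the RefSeq genome of the same assembly. Clusters, motifs (101 bp windows) and features were computed with Python 3.11.15, numpy 2.4.6, pandas 2.3.3 and scipy 1.17.1. The code was checked and tested on simulated data. Of the 6 measures the rule did not use, each was compared by Fisher's exact test, two-sided, with Benjamini-Hochberg adjustment and 0.05 as the threshold. Overlap meant at least 1 bp.

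Named clusters were the 10 with the most peaks, the 5 of highest summed signal, that nearest mdl-1 and those within 5 kb of a Myc-Mondo-Mad gene. Their named genes had a clustered promoter summit, or else the nearest 5' end, and up to 4 genes a list were named. Other genes were named after their values were seen. Members, lists and tests were chosen with earlier results of these data known. Alternatives were the chaining distance, the peak set, the windows, the build ce10 and 1 peak a cluster. Further ones were chromosome X alone, the autosomes alone and leaving out each replicate. Merging close summits was planned for the number of clusters and their shares of peaks and signal. For the 6 measures it was added after the data were seen. Leaving out large clusters or the mdl-1 cluster was also added after the data were seen.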

Additional observations from a re-analysis of the deposited data

How the results depend on the processing

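The intronic and intergenic differences kept their direction and their call in all 11 alternatives run, at 12.4 to 23.2 and -24.2 to -13.8 percentage points (highest adjusted p by Fisher's exact test 0.023 and 0.041). The promoter difference kept its call in 12 of 13 and lost it with 1 peak a cluster (-4.53 points). The CACGTG difference missed the threshold in 9 of 13 alternatives, among them 1 peak a cluster (5.02 points), 30 kb (2.01), the peaks above the median signal (1.42) and the autosomes (1.28). It passed on chromosome X alone (16.8 points, adjusted p = 0.0034), with windows of 100 bp either side (7.03, 0.019), with summits within 500 bp merged (5.61, 0.049) and without clusters of 6 or more peaks (7.08, 0.015, all by Fisher's exact test). Each of these passing settings counted peaks of 1 locus separately, so its p-value is too small. Leaving out 1 replicate gave -2.98 (without replicate 1) to 3.53 points. The CACGCG difference turned to -0.222 with the peaks above the median signal alone, -0.207 with windows of 25 bp, -0.622 with 100 bp and -0.951 without replicate 1 (0.209 without replicate 2), with no adjusted p below 0.490 in any alternative. The GAGAGA difference passed without replicate 1 (-8.66 points, Fisher's exact test, adjusted p = 0.0052) and was -2.75 without replicate 2. The causes of these changes were not tested.

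The number of clusters was 70 at 10 kb, 118 at 30 kb, 97 to 99 with each replicate left out and 30 among the peaks above the median signal. The share of peaks in clusters was 23.9% at 10 kb, 43.2% at 30 kb, 31.4% with close summits merged, 18.3% with the peaks above the median signal alone and 33.5% to 35.4% with 1 replicate left out. The share of signal was 26.3% at 10 kb, 47.0% at 30 kb, 34.2% with close summits merged, 21.2% with the peaks above the median signal alone and 35.9% to 38.2% with 1 replicate left out. The ce10 list gave 98 clusters, 33.8% of peaks and 36.7% of signal. No paired analysis was possible because the series has 1 group. The read depth behind a peak is unknown, and no value here measures it.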
